A study of Papio anubis with 25 samples.

Results

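Hepatocyte identity is held by a small set of transcription factors that bind each other's genes and the genes of hepatocyte products. A list of 8 such factors was described here: HNF4A, ONECUT1, CEBPA, FOXA2, FOXA3, NR1H4, NR1I3 and PROX1. Of these 8, 7 had a row in the table of 21287 genes. ONECUT1, a cut-homeobox factor of liver and pancreas, had no row under that symbol and was not analysed here. The members were taken by name, but with earlier results of these data known, so their counts are not an independent test.

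The study profiled RNA of 5 olive baboons (Papio anubis) with no treatment named, 4 females (baboons 1 to 4) and 1 male (baboon 5), to follow digestive gene expression across glands. Liver, pancreas and the left parotid, submandibular and sublingual salivary glands of each animal were flash-frozen, giving 25 bulk RNA-seq libraries, 5 for each tissue. No genotype or age is given in the labels, and with 1 male the sexes could not be compared. The same 5 animals supplied every tissue, so each comparison was made within animals.

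HNF4A is a nuclear receptor that occupies the regulatory regions of a large share of hepatocyte genes. FOXA2 and FOXA3 are forkhead pioneer factors, which open chromatin in the embryonic endoderm from which both liver and pancreas bud, and CEBPA is a leucine zipper factor of hepatocytes, adipocytes and myeloid cells. NR1H4 (FXR) senses bile acids, NR1I3 (CAR) senses foreign compounds, and PROX1 is a homeobox factor of hepatocytes and of lymphatic endothelium.

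Levels are transcript abundances on the TPM scale, which are scaled for transcript length and set so that each library sums to 1000000. They keep no read depth, so the depth of each library is unknown and no counting interval can be given. The liver and pancreas libraries matched their markers. The summed level of 9 hepatocyte markers was 43681 to 76386 TPM in liver, 619 to 1059 TPM in pancreas and 154 to 1195 TPM in the 15 gland libraries. That of 9 acinar markers was 159275 to 200175 TPM in pancreas and 1063 to 2049 TPM in liver. A sum of 7 salivary markers did not set the glands apart. It was 1357 to 3751 TPM in parotid, 1243 to 24818 TPM in submandibular and 640 to 323934 TPM in sublingual. In pancreas it was 2197 to 4847 TPM and in liver 420 to 3070 TPM. Some gland libraries stood apart. The adipose marker sum reached 22350 TPM in the parotid of baboon 2, 7222 TPM in the submandibular of baboon 5 and 2842 TPM in the submandibular of baboon 2, against 18.2 to 418 TPM in the other 12. The parotid of baboon 5 was rich in lymphoid and lymphatic genes, the sublingual of baboon 2 in skeletal muscle genes, and the sublingual of baboons 1 and 4 in oral epithelium genes and, with that of baboon 5, in the myeloid list (17490 to 44756 TPM in these 3, against 116 to 1394 TPM in the other 12 gland libraries). Fits were repeated without 4 and 5 of these libraries and, as a choice made after seeing the data, without the sublingual of baboons 1 and 4, which changed no call of a member. Of the myeloid list, CSF1R was 5.17, 0.805 and 1.13 TPM in the sublingual of baboons 1, 4 and 5. In the parotids of baboons 2 and 5 it was 36.9 and 27.6 TPM, so the myeloid sum did not follow this gene. In bulk tissue, fewer cells of a type and less RNA per cell cannot be told apart.

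All 7 measured factors were higher in liver than in the salivary glands, and 5 of the 7 were higher in liver than in pancreas. FOXA2 and FOXA3 were the exceptions: neither difference between liver and pancreas was called, pancreas means were 63.9% and 46.7% of the liver means, and the glands held little of either. HNF4A and NR1H4 were low in pancreas, yet above most or all gland libraries. NR1I3 and PROX1 had no called difference between pancreas and glands, and PROX1 in pancreas was above 14 of the 15 gland libraries whereas NR1I3 was not. CEBPA was high in liver and also in single gland libraries, not all of them rich in fat. The sublingual of baboon 1 had 14.7 TPM of CEBPA with an adipose marker sum of 92.5 TPM.

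**Figure D1:**
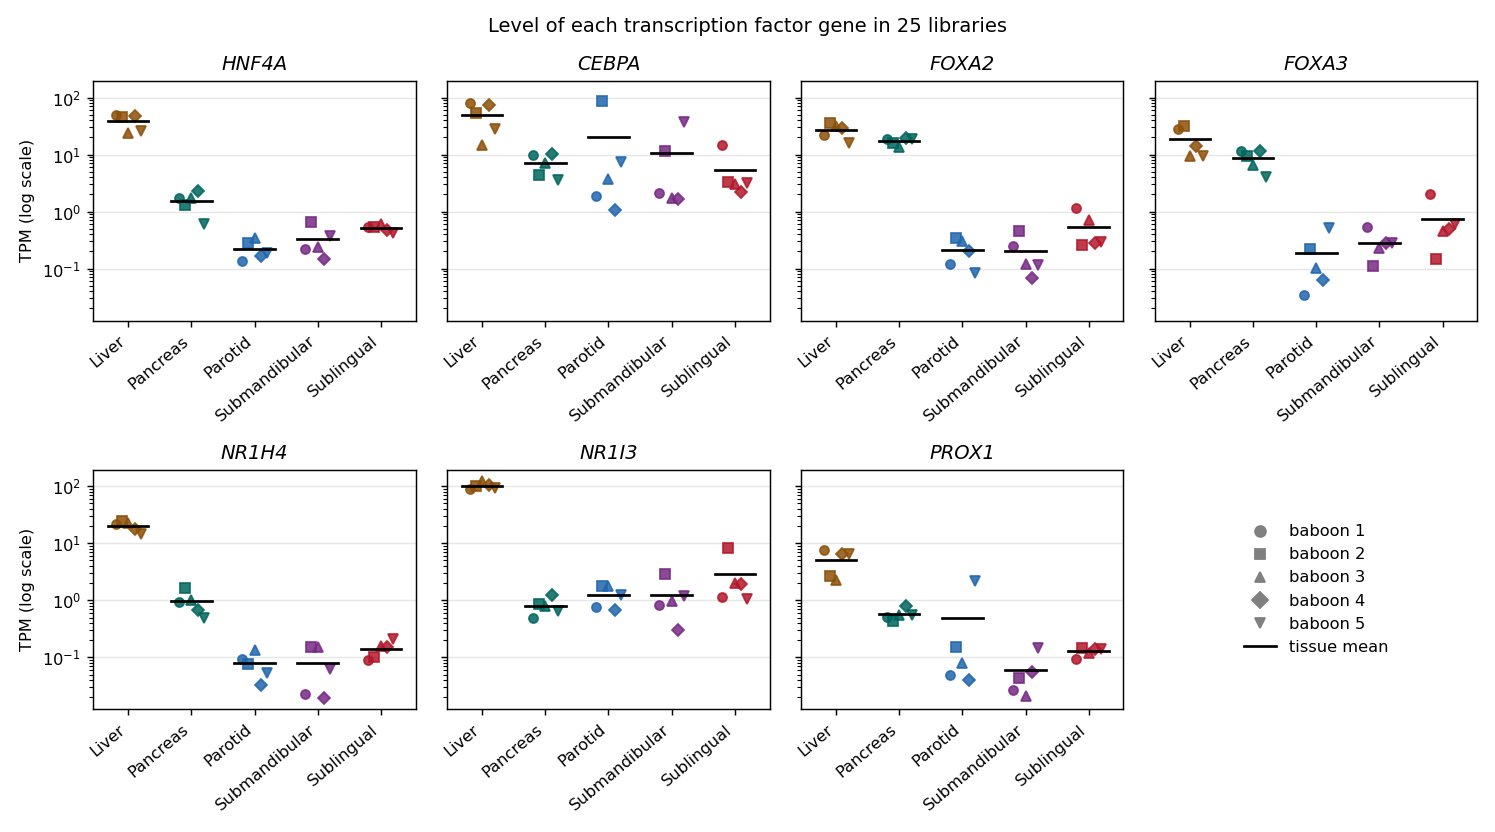
Level of each measured factor in all 25 libraries, in TPM on a log axis, by tissue; each point is the library of 1 baboon and each bar is the mean of 5 animals. NR1I3, HNF4A and NR1H4 are far higher in liver than elsewhere, and FOXA2 and FOXA3 are high in liver and pancreas. PROX1 is highest in liver, but 1 parotid library (2.17 TPM) lies just below the lowest liver (2.24 TPM). CEBPA reaches 87.0 TPM in 1 parotid library.

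Differences were tested with limma on log2(TPM + 1) over 14991 genes, those averaging 1 TPM or more in any of the 5 tissues. A gene was called when its Benjamini-Hochberg adjusted p over all tested genes was under 0.05 and its difference at least 1 on that log2 scale, which understates the change of low genes. All 7 members were tested; NR1H4 and PROX1 passed the filter through liver alone, so their difference from liver follows in part from the filter. In liver against pancreas 5 of 7 members were called higher, where 14.6% of all tested genes were. In liver against the mean of the 3 glands the count was 7 of 7, where 13.2% of tested genes were called higher. In pancreas against the gland mean it was 2 of 7, with a background of 3.16%. No member was called lower in any of the 12 tissue comparisons, and at an unadjusted p under 0.05 only NR1I3 was lower in 1 of them, pancreas against sublingual (log2 difference -0.86, adjusted p = 0.0977 by limma).

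The 3 glands taken singly gave nearly the same picture. Against each of parotid, submandibular and sublingual all 7 members were called higher in liver, with backgrounds of 10.9%, 13.9% and 9.52%. Leaving out 1 animal ended the CEBPA call in some of these, so that 6 members were called against the parotid and against the submandibular without baboon 1, 3 or 4, and 6 against the sublingual without baboon 4. Pancreas exceeded the parotid for 3 members (HNF4A, FOXA2 and FOXA3; background 2.4%) and the submandibular and sublingual for 2 (FOXA2 and FOXA3; backgrounds 2.81% and 2.49%). The HNF4A call against the parotid was lost when any 1 of the 5 animals was left out (adjusted p from 0.0509 to 0.236) and without the 4 gland libraries named below (0.0591). Between glands limma called no member, and none had an unadjusted p under 0.05. Of all 14991 tested genes, 0 were called in parotid against submandibular, 17 in parotid against sublingual and 10 in submandibular against sublingual. In the same order 254, 1368 and 2109 genes had an unadjusted p under 0.05. With so few genes called, the lack of a called member is no result about the members.

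HNF4A stood at 48.9, 46.6, 23.8, 47.1 and 26.3 TPM in the livers of baboons 1 to 5 (38.5 ± 12.4, SD, n = 5). In pancreas it was 1.74, 1.33, 1.71, 2.30 and 0.610 TPM (1.54 ± 0.622). Every liver was above every pancreas, and the livers of baboons 3 and 5 were lower than the other 3. The liver-minus-pancreas difference was 3.94 on the log2 scale (SE 0.28, 95% interval 3.36 to 4.52, limma adjusted p = 7.53e-11), and liver exceeded the gland mean by 4.81 (SE 0.23, adjusted p = 2.52e-14).

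In the glands HNF4A lay between 0.134 and 0.668 TPM, with means of 0.512 ± 0.0646 TPM in sublingual, 0.330 ± 0.205 in submandibular and 0.221 ± 0.0858 in parotid. Of the 5 pancreas libraries 4 were above the highest gland library, the submandibular of baboon 2, and the exception was the pancreas of baboon 5 at 0.610 TPM. Within each of the 5 animals the pancreas was above all 3 of its own glands. The pancreas exceeded the gland mean by 0.88 (SE 0.23, limma adjusted p = 0.0188), which passed the p threshold and missed the fold threshold. Without baboon 5 the difference was 1.03 (adjusted p = 0.0232) and was called. With scaling by trimmed mean of M values (TMM), which removes a shift of all genes between libraries, it was 1.14 (adjusted p = 6.07e-06). The order of the tissues was therefore liver, pancreas, sublingual, submandibular and parotid. Of neighbours in that order only liver and pancreas were called different, and with TMM scaling pancreas and sublingual also were (adjusted p = 2.34e-04).

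HNF4G, the paralog of HNF4A, was at 0.856 TPM in liver and 1.14 TPM in pancreas. The ratio of HNF4A to HNF4G within a library, as a log2 ratio of TPM + 1, averaged 4.36 in liver and 0.24 in pancreas, where the paralogs were at similar levels. HNF4A overlaps FITM2, a lipid droplet gene, by RefSeq's Panubis1.0 genes, and whether counting used strand is not given in the sources used here. HNF4A also overlaps a pseudogene, LOC103887995, whose level was not examined. FITM2 averaged 8.96 TPM in liver, 4.25 TPM in pancreas and 8.24 TPM in glands, an order that HNF4A did not follow.

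FOXA2 was the factor that liver and pancreas held most alike. The livers of baboons 1 to 5 had 22.1, 35.5, 32.1, 29.8 and 16.0 TPM (27.1 ± 7.91) and the pancreases 18.7, 15.7, 13.7, 19.7 and 18.7 TPM (17.3 ± 2.49). The ranges overlapped, and liver was the higher in 4 of 5 animals, the exception being baboon 5. The difference was 0.58 (SE 0.29, 95% interval -0.03 to 1.18, limma adjusted p = 0.196), and its direction turned to -0.07 under TMM and to -0.11 under a scaling by the median of ratios. The interval includes 0, and it does not show that the levels are equal. All 14991 tested genes had a median liver-minus-pancreas difference of 0.44, which TMM brought to 0.03.

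Against the glands, FOXA2 was far higher in both organs. No gland library exceeded 1.15 TPM, and the means were 0.210 ± 0.112 TPM in parotid, 0.202 ± 0.158 in submandibular and 0.544 ± 0.391 in sublingual. Pancreas exceeded the gland mean by 3.81 (SE 0.24, limma adjusted p = 2.92e-11). The same difference for liver was 4.39 (SE 0.24, adjusted p = 2.84e-13). In rank among all 21287 genes of a library, FOXA2 had a median of 1952 in pancreas and 2335 in liver, and in pancreas it was the highest-ranked of the 7 members.

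FOXA3 followed its paralog, with lower means in liver and pancreas. Its means were higher than those of FOXA2 in submandibular (0.286 TPM) and sublingual (0.753 TPM). It was 27.8, 31.3, 9.43, 14.4 and 9.36 TPM in the livers of baboons 1 to 5 (18.5 ± 10.4) and 11.7, 9.33, 6.62, 11.4 and 4.11 TPM in their pancreases (8.63 ± 3.24). Liver was above pancreas in 5 of 5 animals although the ranges overlapped. The difference of 0.92 (SE 0.34, 95% interval 0.21 to 1.63) was not called (limma adjusted p = 0.0672), and it shrank to 0.31 with TMM scaling (adjusted p = 0.415). In the glands FOXA3 was between 0.0340 and 2.06 TPM, with the sublingual of baboon 1 highest and the others at most 0.608 TPM. Every pancreas library was above every gland library, and the pancreas exceeded the gland mean by 2.75 (SE 0.28, limma adjusted p = 1.74e-07), against 3.67 for liver (SE 0.28, adjusted p = 1.92e-10).

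Their paralog FOXA1 was not a member and behaved otherwise. It was at 18.3, 20.7, 14.1, 19.4 and 10.2 TPM in liver but only 0.402 to 0.842 TPM in pancreas, a difference of 3.44 (SE 0.40, limma adjusted p = 4.72e-07). Submandibular and sublingual libraries held 0.202 to 7.87 TPM of it. The FOXA2 to FOXA1 ratio, as a log2 ratio of TPM + 1, was 0.67 ± 0.32 in liver, 3.53 ± 0.33 in pancreas, -1.19 ± 0.70 in submandibular and -1.46 ± 1.16 in sublingual. Liver thus carried all 3 FOXA transcripts, the pancreas FOXA2 and FOXA3, and the submandibular and most sublingual glands more FOXA1 than FOXA2. The FOXA2 to FOXA3 ratio was 0.65 ± 0.76 in liver and 0.99 ± 0.55 in pancreas, within each other's spread.

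CEBPA, which activates genes of gluconeogenesis, urea synthesis and plasma proteins in hepatocytes, was the member with the widest spread. In the livers of baboons 1 to 5 it stood at 79.3, 53.7, 15.0, 75.5 and 28.0 TPM (50.3 ± 28.4), and in their pancreases at 9.77, 4.36, 7.09, 10.4 and 3.59 TPM (7.04 ± 3.08). Each liver was above each pancreas. The difference was 2.53 (SE 0.79, 95% interval 0.89 to 4.17, limma adjusted p = 0.0267). This call was lost without baboon 1 (adjusted p = 0.0698), 3 (0.0545), 4 (0.0768) or 5 (0.0514) and with no filter on low genes (0.0512), while the difference stayed between 1.88 and 2.92 over all alternatives.

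Most gland libraries had little CEBPA, and 4 of them had more than any pancreas. The parotids of baboons 1 to 5 were at 1.85, 87.0, 3.76, 1.05 and 7.30 TPM, the submandibular glands at 2.13, 11.6, 1.71, 1.65 and 36.8 TPM, and the sublingual glands at 14.7, 3.35, 3.06, 2.25 and 3.19 TPM. The parotid of baboon 2 was above all 5 livers and the submandibular of baboon 5 above 2 of them. Beside these values, ADIPOQ, the adipocyte hormone adiponectin, was 591 TPM in the parotid of baboon 2, 397 TPM in the submandibular of baboon 5 and 72.7 TPM in the submandibular of baboon 2, and at most 11.9 TPM in the other 12 gland libraries. PLIN1, which coats fat droplets, was 525, 174 and 46.6 TPM in the same 3 libraries and at most 6.24 TPM in the others. The sublingual of baboon 1, with 14.7 TPM of CEBPA, had 2.36 TPM of ADIPOQ and an adipose sum of 92.5 TPM; its keratin 13 (KRT13) level was 50365 TPM and its myeloid marker sum 32925 TPM. The sublingual of baboon 4 had a myeloid sum of 44756 TPM with 2.25 TPM of CEBPA. CSF1R, a gene of that sum, was 0.805 TPM there and 5.17 TPM in the sublingual of baboon 1. In the parotid of baboon 2 CSF1R was 36.9 TPM with a myeloid sum of 741 TPM, so the sum did not follow this gene. The part of fat, epithelium or myeloid cells in these CEBPA levels was not tested. CEBPA overlaps a transcribed pseudogene, LOC108583175, by RefSeq's Panubis1.0 genes, and the level of that pseudogene was not examined.

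**Figure D2:**
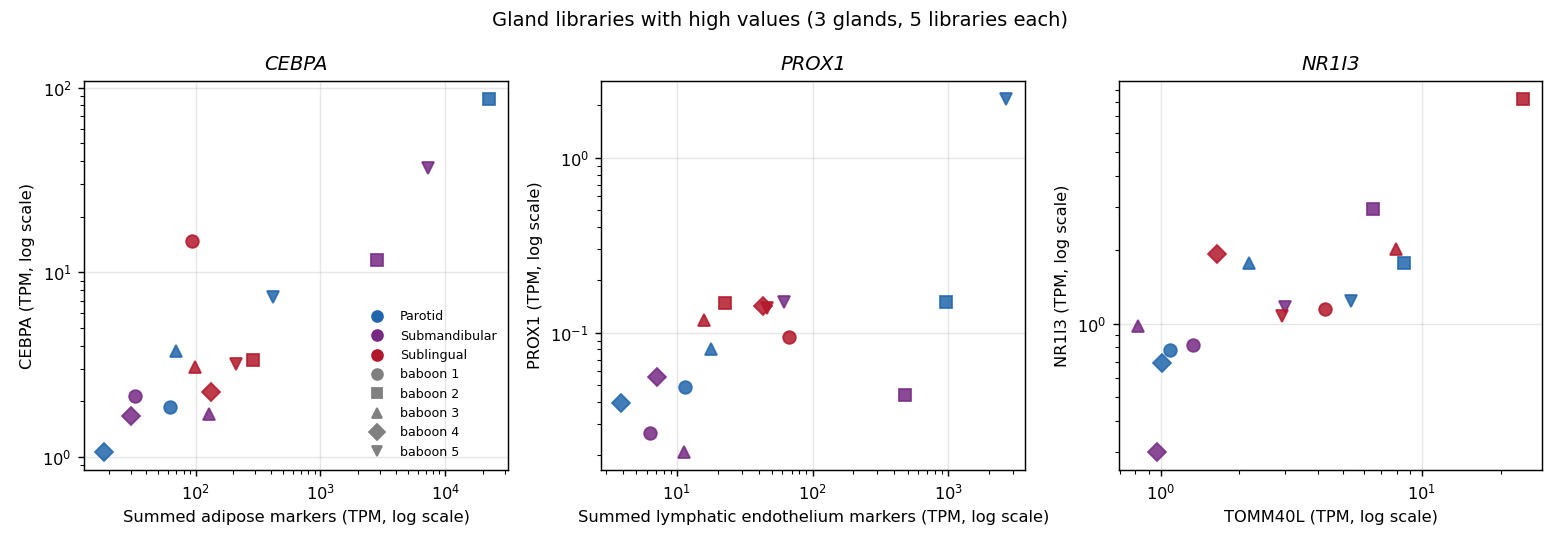
CEBPA level against the summed level of 7 adipose markers, PROX1 level against the summed level of 6 lymphatic endothelial markers, and NR1I3 level against that of its overlapping neighbour TOMM40L, in the 15 salivary gland libraries, all in TPM on log axes. The parotid of baboon 2 and the submandibular of baboon 5 lie highest in CEBPA and in adipose genes, and the parotid of baboon 5 lies highest in PROX1 and in the lymphatic sum, most of which is CCL21 there; the sublingual of baboon 2 has the highest NR1I3 and TOMM40L levels.

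Liver exceeded the gland mean in CEBPA by 2.81 (SE 0.65, limma adjusted p = 0.00247), and by 3.43 (adjusted p = 5.64e-06) without the 4 libraries listed as rich in fat, lymphoid or muscle genes (parotid of baboons 2 and 5, submandibular of baboon 5, sublingual of baboon 2). Pancreas and glands differed by 0.28 (SE 0.65, adjusted p = 0.773) with all libraries and by 0.90 (adjusted p = 0.216) without those 4, and by 0.45 (adjusted p = 0.686) without the sublingual of baboons 1 and 4. When the submandibular of baboon 2 was also left out, a choice made after its adipose sum was seen, the difference was 1.22 (adjusted p = 0.0520). The direction between pancreas and glands turned to -0.19 without baboon 4. In tissue means the order was liver, parotid, submandibular, pancreas and sublingual, but by medians the pancreas (7.09 TPM) came after the liver and before the parotid (3.76 TPM).

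NR1H4, the bile acid receptor, was steady in liver at 21.5, 24.7, 23.0, 17.9 and 14.3 TPM (20.3 ± 4.15). In pancreas it was 0.933, 1.67, 1.01, 0.689 and 0.482 TPM (0.956 ± 0.449). The gland libraries were lower again, at 0.0190 to 0.207 TPM, and no gland library reached the lowest pancreas. Liver exceeded pancreas by 3.45 (SE 0.23, limma adjusted p = 2.94e-11) and the gland mean by 4.25 (SE 0.19, adjusted p = 9.42e-15). The pancreas exceeded the gland mean by 0.80 (SE 0.19, adjusted p = 0.00911), short of the fold threshold, and by 1.01 with TMM scaling (adjusted p = 2.17e-06), which passed it. No gland pair was called different in NR1H4. Their means were 0.0782 ± 0.0395 TPM in parotid, 0.0811 ± 0.0655 in submandibular and 0.141 ± 0.0471 in sublingual, within each other's spread.

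NR1I3 was the most abundant of the 7 in liver and the least variable there. Its liver levels were 88.6, 99.7, 126, 104 and 93.8 TPM (102 ± 14.4), with a median rank of 906 among all genes of a library. In pancreas it was 0.498, 0.866, 0.783, 1.23 and 0.645 TPM (0.805 ± 0.276), lower than in the glands by mean. The liver-minus-pancreas difference of 5.84 (SE 0.34, limma adjusted p = 3.23e-12) was the largest of the 7 members, and liver exceeded the gland mean by 5.38 (SE 0.28, adjusted p = 1.09e-13).

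In the glands NR1I3 was 0.298 to 8.27 TPM, and 14 of the 15 gland libraries were above the lowest pancreas library. Pancreas minus gland mean was -0.46 (SE 0.28, limma adjusted p = 0.279), and -0.32 (adjusted p = 0.433) without the 4 libraries. In no animal was the pancreas above all 3 of its own glands. The highest gland value, 8.27 TPM, was in the sublingual of baboon 2. NR1I3 overlaps TOMM40L, a gene of the mitochondrial import channel family, by the same annotation, and with strand not given the reads of the overlap cannot be assigned with certainty. TOMM40L was 24.4 TPM in that same sublingual library and 0.818 to 8.54 TPM in the other 14 gland libraries, against 4.83 to 15.7 TPM in liver and 0.573 to 1.11 TPM in pancreas. TOMM40L varied 3.25-fold between livers and NR1I3 1.42-fold. NR1I2 (PXR), the sister receptor for foreign compounds, averaged 28.9 TPM in liver and 1.40 TPM in pancreas. The log2 ratio of NR1I3 to NR1I2 was 1.85 ± 0.64 in liver and -0.38 ± 0.47 in pancreas.

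PROX1 was the lowest of the 7 in liver, at 7.56, 2.64, 2.24, 6.54 and 6.58 TPM (5.11 ± 2.48). The pancreas had 0.506, 0.434, 0.562, 0.790 and 0.561 TPM (0.571 ± 0.133). The livers of baboons 2 and 3 were lower than the other 3, and each liver was above each pancreas. The difference was 1.85 (SE 0.29, limma adjusted p = 3.14e-05), and liver exceeded the gland mean by 2.27 (SE 0.24, adjusted p = 5.05e-08).

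Outside 1 library the glands had little PROX1, from 0.0206 to 0.150 TPM. The exception was the parotid of baboon 5, at 2.17 TPM, just below the lowest liver. In that library CCL21, a chemokine of lymphatic vessels and lymph nodes, was 2515 TPM, LYVE1, a lymphatic endothelial receptor, was 118 TPM and FLT4, the lymphatic growth factor receptor, 6.51 TPM. The parotid of baboon 2 had 535 TPM of CCL21, 343 TPM of LYVE1 and 8.59 TPM of FLT4 with 0.150 TPM of PROX1. The sum of 6 lymphatic markers (2651 and 964 TPM) and CCL21 were higher in the parotid of baboon 5, and the other 5 markers in that of baboon 2. Whether lymphatic RNA accounts for the high value was not tested. Every pancreas was above the 14 other gland libraries, and in 4 of 5 animals above all 3 of its own glands. Pancreas and gland mean differed in PROX1 by 0.42 (SE 0.24, limma adjusted p = 0.254), and by 0.57 (adjusted p = 0.103) without the 4 libraries.

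**Figure D3:**
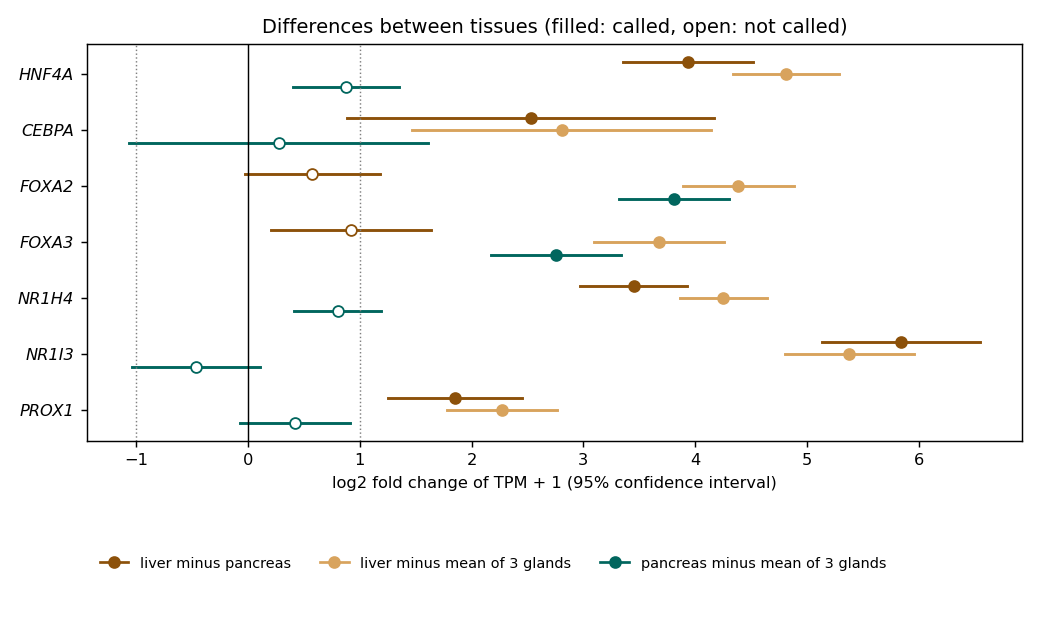
Log2 difference in TPM + 1, with its 95% interval from limma, for each measured factor in liver against pancreas, liver against the mean of the 3 glands, and pancreas against the mean of the 3 glands; filled points passed both thresholds and the dotted lines mark a difference of 1 in either direction. Liver against glands is called for all 7, whereas pancreas against glands is called for FOXA2 (3.81) and FOXA3 (2.75), and FOXA2 differs least between liver and pancreas (0.58, or -0.07 with TMM scaling).

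By the rule that a factor is shared when it is called above the gland mean in both organs, FOXA2 and FOXA3 were shared by liver and pancreas, and HNF4A, CEBPA, NR1H4, NR1I3 and PROX1 were called in liver only. Of all 14991 tested genes 1.11% were shared by this rule, 12.1% were called in liver only, 2.05% in pancreas only and 84.8% in neither. Liver and pancreas were both set against the same gland libraries, so the counts are not independent. HNF4A and NR1H4 joined the shared class with TMM or median-of-ratios scaling, or with the adjusted p alone as the criterion, giving 4 of 7. TMM also raised the tested genes called higher in pancreas than glands from 474 to 939. With a pseudocount of 0.1 PROX1 joined as well, giving 5 of 7. The 1.11% holds for the main setting. The share of all tested genes in the shared class was not computed for the other settings, so the counts of 4 and 5 have no background. Leaving out the 4 or the 5 unusual gland libraries, or the 2 sublingual ones, kept the count at 2.

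Ranges over single libraries were compared without a model. Every liver library was above every pancreas library for 5 members (32.9% of tested genes), and above every gland library for 6 members, all but CEBPA (5.51% of tested genes). Every pancreas library was above every gland library for 3 members, FOXA2, FOXA3 and NR1H4 (1.58% of tested genes).

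As a percentage of the liver mean, the pancreas held 63.9% for FOXA2, 46.7% for FOXA3, 14.0% for CEBPA, 11.2% for PROX1, 4.71% for NR1H4, 3.99% for HNF4A and 0.786% for NR1I3. Secreted hepatocyte products give a scale for these values. Among 7 of them measured in the same libraries the pancreas means ran from 0.678% (APOA1, the main HDL protein) to 3.24% (TTR, a thyroid hormone carrier that islets also make), and that of albumin (ALB) was 0.955%. The 6 products other than TTR lay at 0.678% to 1.40%. NR1I3 lay within that narrower range, and the other 6 members were above all 7 products.

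In the glands the same products ranged from 0.347% (APOA1 in submandibular) to 4.23% (TF, transferrin, in sublingual) of their liver means. HNF4A at 0.573% to 1.33%, FOXA2 at 0.747% to 2.01%, NR1H4 at 0.385% to 0.696%, NR1I3 at 1.22% to 2.82% and FOXA3 at 1.02% to 4.08% lay within that range in all 3 gland means. The upper end rests on 1 sublingual library with TF at 13.5%, where the median was 2.02%, and the product next below was SERPINA1 in sublingual at 2.82%, which FOXA3 in sublingual exceeded. Whether these low levels came from gland cells was not tested. CEBPA, with means of 10.5% to 40.1%, was above the range in each gland; single libraries carried these means, and the medians were 7.47% in parotid, 4.23% in submandibular and 6.35% in sublingual. PROX1 was within it in submandibular (1.16%) and sublingual (2.51%) and above it in parotid (9.75%), where the median library was at 1.57%.

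**Figure D4:**
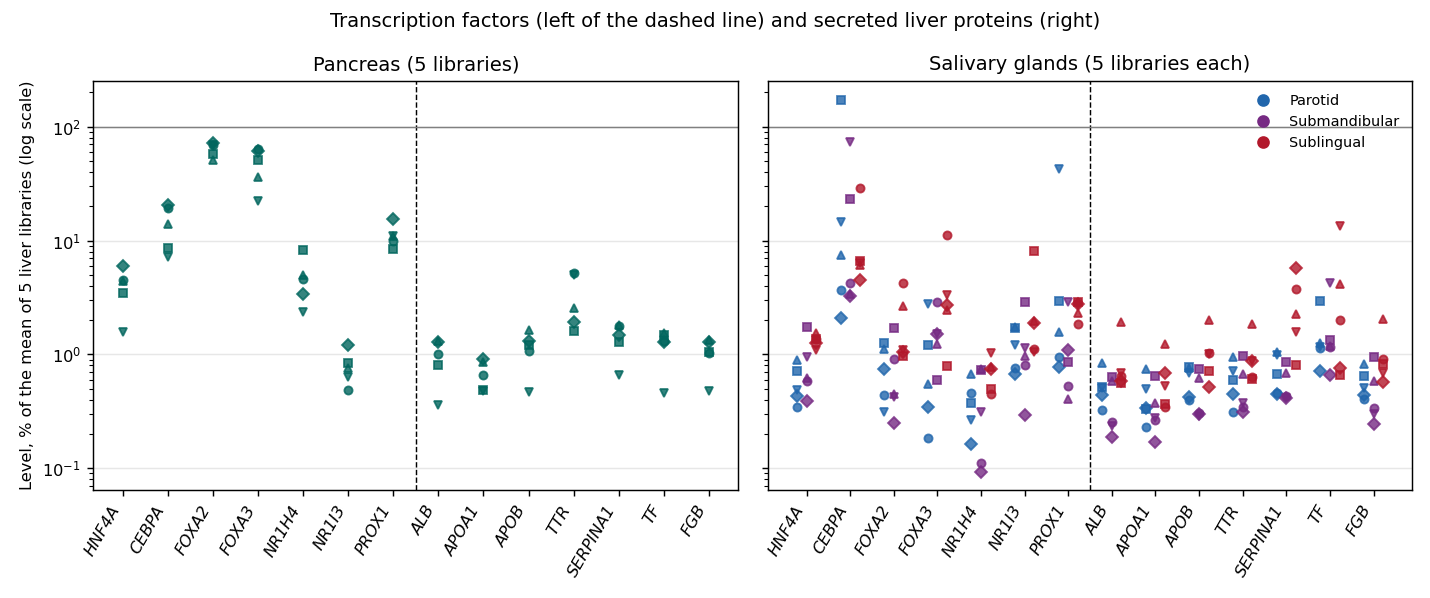
Level of each measured factor in the non-liver libraries as a percentage of its own mean over the 5 livers, on a log axis, by tissue; points are libraries, the grey line marks 100%, and 7 secreted hepatocyte products stand right of the dashed line. In pancreas FOXA2 (mean 63.9%) and FOXA3 (46.7%) lie far above the secreted products and NR1I3 (0.786%) lies among them.

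The makeup of the set differed by tissue. The 7 factors summed to 262 ± 46.8 TPM in liver, of which NR1I3 made up 40.3%, CEBPA 18.3%, HNF4A 14.4%, FOXA2 10.3%, NR1H4 7.81%, FOXA3 6.76% and PROX1 2.01%. In pancreas the sum was 36.8 ± 7.84 TPM, with FOXA2 at 48.1%, FOXA3 at 22.8%, CEBPA at 18.5% and HNF4A at 4.08%. CEBPA was the leading factor in the glands, at 65.1% of the sum in parotid, 67.1% in submandibular and 47.3% in sublingual.

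Livers of different animals did not differ by 1 common factor. CEBPA varied most, with a highest-to-lowest ratio of 5.29, followed by PROX1 (3.38), FOXA3 (3.35), FOXA2 (2.22), HNF4A (2.06), NR1H4 (1.72) and NR1I3 (1.42). In the liver of baboon 3, CEBPA stood at 0.298 of its 5-animal mean, PROX1 at 0.438, FOXA3 at 0.511 and HNF4A at 0.618, while NR1I3 stood at 1.23, FOXA2 at 1.18 and NR1H4 at 1.13. Albumin in that liver was 1.28 of its mean. In the liver of baboon 5, FOXA3 was at 0.507, CEBPA at 0.557, FOXA2 at 0.591, HNF4A at 0.682 and NR1H4 at 0.707 of their means, and so were ALB at 0.476 and APOB, the scaffold of very low density lipoprotein, at 0.250. The secreted products did not all go together there, with TTR at 0.798 and APOA1 at 1.36 of their means. PROX1 there was at 1.29. These are single libraries, and no test between animals was possible.

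**Figure D5:**
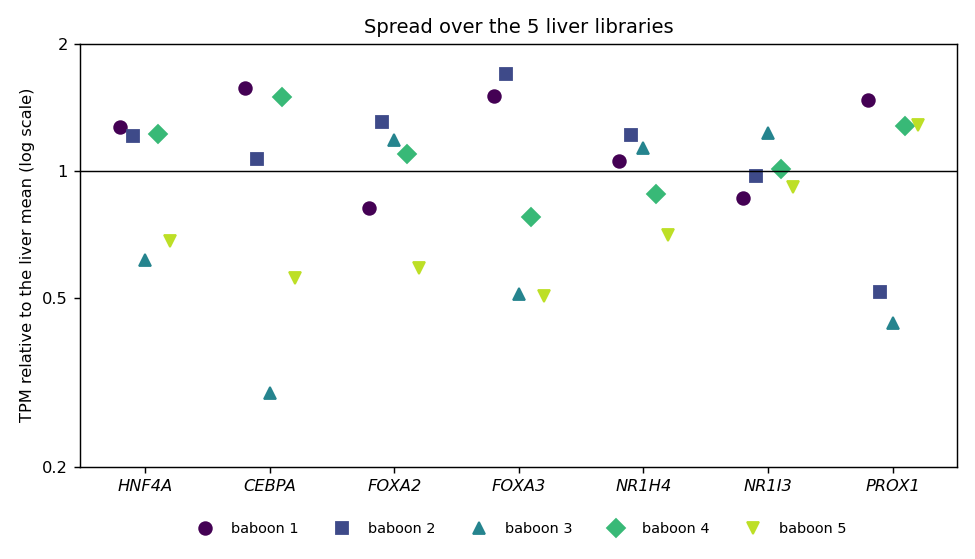
Level of each measured factor in each of the 5 livers divided by the mean of that gene over the 5 livers, on a log axis; points are animals. CEBPA spans the widest range (0.298 to 1.58 of its mean) and NR1I3 the narrowest (0.866 to 1.23).

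Over the pancreases, HNF4A, CEBPA, FOXA3 and NR1H4 were all lowest in baboon 5. FOXA2 there was 18.7 TPM, level with baboon 1. The summed level of 8 islet markers was 13817 TPM in the pancreas of baboon 5 and 575 to 5961 TPM in the other 4, and the acinar sum of that library was the highest, at 200175 TPM. What part the cell makeup had in these levels was not tested.

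Other liver transcription factors followed mixed patterns. Of 26 listed, 24 were tested: 15 were called higher in liver than pancreas (median log2 difference 1.82, against 0.44 over all tested genes, of which 14.6% were called). Against the gland mean 19 were higher in liver (median 2.15), with a background of 13.2%. CREB3L3, an activator of lipid and fasting genes, was at 73.6 TPM in liver and 0.912 TPM in pancreas (difference 5.10, SE 0.32), and ATF5, a stress-response factor, differed by 3.90 (SE 0.70). NR5A2 went the other way, at -1.33 (SE 0.34, limma adjusted p = 0.00660). NR5A2 (LRH-1) activates bile acid and acinar genes.

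Of those 24, 6 were shared by liver and pancreas under the same rule as FOXA2 and FOXA3, NR5A2, NR0B2, GATA4 and GATA6 among them (1.11% of all tested genes). A further 13 were called in liver only (12.1% of all tested genes) and 5 in neither. TBX3 was the factor called lower in pancreas than in the glands (-1.79, SE 0.31, adjusted p = 4.71e-04). ONECUT2, the paralog of the unmeasured ONECUT1, was at 0.484 to 1.21 TPM in liver and 0.0520 to 0.162 TPM in pancreas, below the filter and not tested.

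Pancreatic lineage factors formed the opposite pattern. Of 20 listed, 15 were tested, and 9 were called lower and none higher in liver than pancreas. RBPJL, an acinar factor, was at 5.01 TPM in liver and 496 TPM in pancreas (difference -6.37, SE 0.44), and PTF1A, its partner, was at 0.410 and 45.3 TPM (-4.96, SE 0.28). In pancreas against the glands 10 of the 15 were called higher, where 3.16% of all tested genes were.

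Genes commonly described as regulated by the members were counted in the same comparisons, in which 14.6% of all tested genes were called higher in liver than pancreas, 13.2% in liver than glands and 3.16% in pancreas than glands. All 9 tested HNF4A-regulated genes were called higher in liver than in pancreas (median 5.10) and than in the glands (median 5.69). APOC3 and APOA2, apolipoproteins of triglyceride-rich and high density lipoprotein, led with 7.14 (SE 0.45) and 6.78 (SE 0.45) against pancreas. TTR was also called higher in pancreas than in the glands (2.19, SE 0.36).

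Among 9 tested genes regulated by NR1H4, 9 were called higher in liver than in pancreas (median 3.88) and 8 than in the glands (median 5.54), led by KNG1, a kininogen. NR0B2 (SHP), the repressor that NR1H4 induces, was at 62.4 ± 19.5 TPM in liver, 8.65 ± 3.65 TPM in pancreas and 0.313 TPM in glands. It was the 1 gene of that list called higher in pancreas than in glands (2.79, SE 0.27, limma adjusted p = 5.35e-08), in an organ where NR1H4 itself was 0.956 TPM. ABCB11, the bile salt export pump, was at 15.2 TPM in liver and 0.297 TPM in both pancreas and glands.

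For NR1I3, 5 of 6 tested regulated genes were called higher in liver than pancreas (median 4.32) and 6 than in the glands (median 4.00). SULT2A1, a steroid sulfotransferase, differed by 6.71 (SE 0.39) and CYP2C8, a drug-metabolising cytochrome, by 5.28 (SE 0.42). ABCC3, an efflux pump, was the gene not called against pancreas (1.10, SE 0.66, adjusted p = 0.294). CYP2C8 was also called higher in pancreas than in glands (1.76, SE 0.35, adjusted p = 0.00174), where NR1I3 was not.

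Of 10 genes regulated by CEBPA, 8 were called higher in liver against either comparison group and none in pancreas against glands. Those not called were ADIPOQ (0.02 against pancreas, -1.57 against glands) and CSF3R (0.41 and 0.003), which are an adipocyte and a myeloid gene. Regulated genes were listed from general knowledge, most of them as hepatocyte genes, and their counts do not show that a member acts on them here.

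Genes whose levels ran most like a member over the 25 libraries are given as a description, by Pearson's r of log2(TPM + 1); the libraries share 5 animals and the r values mostly reflect tissue means. For HNF4A they were NR1I2 (0.988), HGFAC (0.988) and TFR2 (0.988), and for NR1H4 TFR2 (0.989), UROC1 (0.987) and NR1I2 (0.987). For FOXA2 they were CBS (0.989), GUCA2B (0.983) and MAT1A (0.978), and for FOXA3 CBS (0.969), HABP2 (0.962) and ABAT (0.962). CBS, an enzyme of cysteine synthesis, averaged 66.3 TPM in liver and 41.6 TPM in pancreas.

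NR1I3 ran most like ABCB11 (0.985), SLC25A18 (0.982) and DNHD1 (0.978). PROX1 did so with C9H12orf60 (0.976), ART4 (0.956) and OIT3 (0.956), and CEBPA with OCIAD2 (0.919), ACACB (0.918) and GPAM (0.918). ACACB and GPAM are enzymes of malonyl-CoA and glycerolipid synthesis. Between members r was highest for HNF4A with NR1H4 (0.988) and FOXA2 with FOXA3 (0.963), and it was 0.508 to 0.696 for CEBPA with the other 6. FOXA2 and FOXA3 with NR1I3 lay in that same range (0.605 and 0.636).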

How the data were processed

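The submitters deposited 1 abundance table with 21287 gene rows for 25 libraries; values are TPM made by the authors, with kallisto per the deposited table's name. Per the labels' protocols, RNA came from sections of frozen tissue, was DNase-treated and was sequenced as read pairs on an Illumina HiSeq. The submitters' processing notes also name FastQC, MultiQC, cutadapt, HISAT2, SAMtools, featureCounts and DESeq2, without roles; versions, build and annotation are not given in the sources used here. TPM shares a fixed total, so very abundant secretory transcripts lower all other genes of a library.

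Columns were matched to labels by animal and tissue. Tests used limma 3.58.1 under R 4.3.3, with a mean-variance trend in its moderated variances, on log2(TPM + 1), with tissue and animal terms over all 25 libraries, 12 tissue contrasts, and Benjamini-Hochberg adjustment over 14991 genes. The fit was tested on simulated data. Animals pair the libraries per the labels: deviations from tissue means correlated by 0.161 on average between tissues of 1 animal and -0.0354 between animals, and by 0.362 for liver and pancreas of 1 animal. Alternatives changed the block, the samples in the fit, the scaling (TMM, median of ratios), the filter, the pseudocount and the libraries left out. Named genes were all members, the 3 genes closest to each by Pearson's r, and from each list up to 2 genes with the largest called difference in each direction; others (HNF4G, FITM2, TOMM40L, ABCB11, ABCC3, ADIPOQ, CSF3R, PLIN1 and the lymphatic genes among them) were named after their values were seen. Members and lists were chosen with earlier results of these data known. ONECUT1 was not analysed here, some genes of the lists are not reported here by name, and no sequences were used.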

Additional observations from a re-analysis of the deposited data

Results flagged for a closer look

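In 7 of the 35 groups of 5 libraries (7 members in 5 tissues) the highest library stood apart from the other 4 by Dixon's criterion on TPM. Normally distributed values meet it in about 1 of 20 groups. TPM without logs can be right-skewed, which raises that rate, and the groups share libraries. The 7 are therefore a description and not a count beyond chance. All 7 were high values in salivary glands. CEBPA did so in the parotid of baboon 2 (87.0 TPM), the submandibular of baboon 5 (36.8 TPM) and the sublingual of baboon 1 (14.7 TPM). The adipose marker sums of those libraries were 22350, 7222 and 92.5 TPM, and the myeloid sum of the last was 32925 TPM. CSF1R, a gene of the myeloid list, was 36.9, 1.27 and 5.17 TPM in the same libraries.

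FOXA3 stood apart in the sublingual of baboon 1 (2.06 TPM), the library with the highest oral epithelium sum (109336 TPM), where FOXA2 was also highest of the sublingual libraries (1.15 TPM). NR1I3 did so in the sublingual of baboon 2 (8.27 TPM), where the overlapping gene TOMM40L was 24.4 TPM and the skeletal muscle sum 63572 TPM. PROX1 stood apart in the parotid of baboon 5 (2.17 TPM), with a lymphatic endothelial sum of 2651 TPM, of which CCL21 made up 2515 TPM, and in the submandibular of baboon 5 (0.149 TPM), with 61.6 TPM. The other 5 lymphatic markers were higher in the parotid of baboon 2, where PROX1 was 0.150 TPM. In the submandibular of baboon 2 the lymphatic sum was 482 TPM and PROX1 0.0439 TPM. The sublingual of baboon 2 held 0.148 TPM of PROX1, close to the flagged 0.149 TPM. The part of other cell types in these values was not tested.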

How the results depend on the processing

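Of 357 values (21 differences of members under 17 alternatives), 336 kept direction and call, 5 lost the call, 12 gained it and 4 changed sign; 15 of the 21 differences kept both throughout. The fit with no replicate block gave the same member counts (5, 7 and 2 higher in liver against pancreas, liver against glands and pancreas against glands) and changed no member's call. Members higher in pancreas than glands, and members shared by liver and pancreas, rose from 2 to 4 with TMM, median-of-ratios, TMM with no replicate block or the adjusted p alone, and to 5 with a pseudocount of 0.1; they were 2 to 3 with 1 animal left out. The first 3 of these settings raised the genes called higher in pancreas than glands from 474 to 939, 957 and 897, and leaving out 5 gland libraries (an alternative added after seeing the data) to 734. For pancreas against submandibular alone, members rose from 2 to 4 with TMM or median-of-ratios scaling, and to 5 with the smaller pseudocount. All tested genes were not counted for that comparison under these settings, so these counts have no background. Genes called higher in liver than pancreas moved from 2195 to 3679 with only the tissues compared and 3507 without the 5 libraries, and to between 1398 and 2223 with 1 animal left out; liver against glands moved from 1978 to 3530 without the 5 libraries. Leaving out 2 sublingual libraries (also added after seeing the data) changed no member's call. The cause was not tested. FOXA2 in liver against pancreas turned from 0.58 to -0.071 (TMM, with or without the block) and -0.11 (median of ratios), while all genes shifted from a median of 0.44 to 0.03 and 0.004. CEBPA in pancreas against glands was -0.19 to 0.76 with 1 animal left out. Read depth is unknown, and levels under 1 TPM are compressed by the pseudocount.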
